A study of Caenorhabditis elegans with 18 samples.

Results

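The genes described here are the 155 rows of the per-gene count table whose name starts with col-, of 26709 genes in all. They were taken by name alone, and no measured value entered that rule. In Caenorhabditis elegans the col- genes encode collagens, nearly all of them of the cuticle, the extracellular coat that the hypodermis secretes. FBF-1 and FBF-2 are PUF RNA-binding proteins of the germline, so reads on col- genes were taken as a gauge of somatic background. The study used iCLIP: UV light cross-linked proteins to RNA in live worms, the tagged protein was pulled down, and the RNA fragments bound to it were read by sequencing. It compared adult hermaphrodites whose germline made only sperm or only oocytes, all raised at 25°, with 3 biological replicates per protein and gender and 3 controls per gender in which the FLAG antibody was omitted, 18 libraries in all.

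Strains were mutant for the fbf gene under study and made that protein, with a 3xFLAG tag, from a transgene present as 1 copy. The oogenic strains were fbf-1(ok91) with qSi232[3xflag::fbf-1] and fbf-2(q738) with qSi75[3xflag::fbf-2]. The spermatogenic strains carried the same alleles and in addition fem-3(q22 ts,gf), a temperature-sensitive gain-of-function allele that turns the germline to sperm at the restrictive temperature, and were kept over the balancer nT1[qIs51]. The labels do not say which of the tagged strains supplied the controls. Each tagged protein had its own strain, so protein and strain cannot be told apart. Lysates were made from whole animals, and in such bulk samples fewer cells of a type and less RNA per cell cannot be told apart.

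The cuticle is shed and rebuilt at each molt. Its collagens are made in waves within each molting cycle, and some members, such as col-19, serve the adult cuticle. The chains are hydroxylated and folded in the endoplasmic reticulum by prolyl 4-hydroxylases and protein disulfide isomerases, trimmed by proteases and cross-linked outside the cell.

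Libraries held 18749 to 1833483 counts on genes, and the smallest, FBF-1 oogenic replicate 1, held only 176 on col- genes. The germline labels were matched by a list of 24 sperm genes. These summed to 1656 to 3109 RPM (reads-per-million of all counts on genes) in the 9 spermatogenic libraries. They summed to 79.0 to 160 RPM in the 9 oogenic libraries. A list of 11 oocyte genes summed to 2524 to 3095 RPM in spermatogenic and 3775 to 7982 RPM in oogenic FBF libraries. In the controls it summed to 2136 to 2415 RPM in spermatogenic and 2639 to 2957 RPM in oogenic germlines. On this list the oogenic controls thus overlapped the spermatogenic FBF libraries. Per the labels, lane 1 held the FBF libraries of spermatogenic germlines together with the oogenic controls, lane 2 held the FBF libraries of oogenic germlines, and lane 3 held the spermatogenic controls. Lane and gender therefore cannot be told apart within the FBF libraries or within the controls. Within each gender the FBF libraries and the controls lay on different lanes. Lane and antibody thus cannot be told apart in FBF over the control of the same gender, nor in the interaction built on it. Reads on rRNA made up 11.9% to 15.4% of counts in spermatogenic FBF, 13.2% to 37.8% in oogenic FBF, 24.6% to 28.3% in spermatogenic control and 43.2% to 47.7% in oogenic control libraries, and they are part of the denominator of every RPM value.

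Reads on col- genes came mostly from a few abundant members. Of the 155 genes, 26 had a mean of at least 100 RPM over the 6 group means, 8 had 20 to 100 RPM, 72 had 1 to 20 RPM, 39 were above 0 and under 1 RPM, and 10 had no count in any library. The 26 abundant members held 87.8% to 98.1% of all col- counts of a library, and 24 members had a count in each of the 18 libraries. The 10 most abundant were col-119, col-20, col-140, col-124, col-181, col-178, col-122, col-160, col-80 and col-101, which took 49.9% to 67.7% of the col- counts. Per kilobase of exon these 10 lay between 487 RPM per kb for col-101 and 1343 RPM per kb for col-119, with col-140 at 1177 and col-20 at 1157 RPM per kb next below it. The members are spread over the genome, and 151 of them were matched in the Ensembl 115 annotation of WBcel235, all protein coding, with 41 on chromosome IV, 29 on V, 27 on X, 23 on II, 19 on I and 12 on III. Exons of 51 members overlap those of another gene, including 8 of the 26 abundant ones. As the strand setting of the counting is not given, values of overlapping genes are uncertain.

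The summed level of the col- genes was lower in FBF iCLIP than in the controls. It was 13129, 12535 and 11912 RPM with FBF-1 and 11196, 15871 and 15615 RPM with FBF-2 in spermatogenic germlines, against 20498, 23012 and 24172 RPM in the spermatogenic controls. In oogenic germlines it was 9387, 10298 and 10489 RPM with FBF-1 and 11209, 12169 and 12088 RPM with FBF-2, against 22643, 21792 and 23575 RPM in the oogenic controls. The 12 FBF libraries and the 6 controls did not overlap, and col- RNAs made up 0.939% to 1.59% of the counts with FBF and 2.05% to 2.42% without antibody. With FBF-1 and FBF-2 counts summed into the 3 combined replicates of each gender that the study used, the mean control level was 1.70-fold higher than FBF in spermatogenic germlines (22561 ± 1878 against 13285 ± 1416 RPM, SD, n = 3) and 2.04-fold higher in oogenic germlines (22670 ± 892 against 11123 ± 742 RPM, SD, n = 3). When rRNA, tRNA and mitochondrial genes were left out of the denominator the ratios were 2.40 and 3.09.

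Muscle and intestinal RNAs were also lower with FBF, and a neuronal list was higher. The 13 muscle genes, among them the myosin heavy chain unc-54, summed to 7295 to 10787 RPM in FBF libraries and 12492 to 17458 RPM in controls, and all 13 had counts. The 8 intestinal genes, which include the vitellogenin genes, summed to 6475 to 12278 RPM in FBF libraries and 15533 to 16418 RPM in controls. The ratio of control to FBF was 1.67 for muscle and 1.69 for intestine in spermatogenic germlines and 1.61 for each in oogenic germlines, near that of the col- genes in the former and below it in the latter. The 8 neuronal genes summed to 435 to 1004 RPM in FBF libraries and 187 to 335 RPM in controls, so the combined FBF level was 2.24 times the control in spermatogenic and 3.64 times in oogenic germlines. Most of these reads fell on snb-1, a synaptobrevin of synaptic vesicles, at 386 to 954 RPM with FBF and 91.8 to 151 RPM in controls (log2 fold changes of 2.29 and 2.61, both called). The other neuronal genes tested, egl-3 in both genders (-0.61 and -0.51) and rab-3 in spermatogenic germlines (-1.34), were not called. The 15 established FBF targets were higher with FBF, with 10170 to 15486 RPM in FBF libraries and 900 to 1146 RPM in controls. The plot of summed levels shows the col-, muscle, intestinal and target lists side by side.

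**Figure D1:**
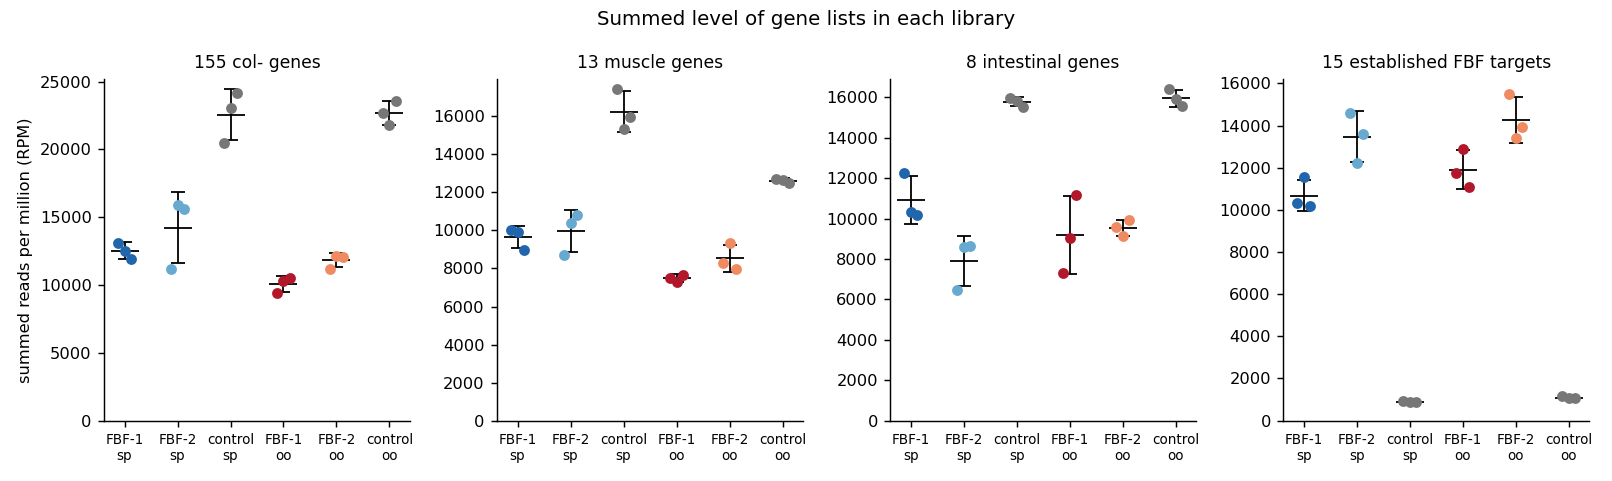
Summed RPM of 4 gene lists in each library (points), with the mean and SD of each group of 3 (bars), for spermatogenic (sp) and oogenic (oo) germlines. The col-, muscle and intestinal lists are higher in every control than in every FBF library, and the 15 established FBF targets sit at 10170 RPM or more with FBF and at 1146 RPM or less in the controls.

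FBF over the spermatogenic control was tested for genes with a mean of the group means of at least 20 RPM, with edgeR's quasi-likelihood test and library-size scaling, and a call required both a change over 2-fold and an adjusted p (Benjamini-Hochberg) under 0.01. A member that is high in a single group could pass that minimum, so the members tested do not stand for all 155. Of 33 members tested, 9 were called lower and 6 higher with FBF, against 8.18% of all 6477 genes called lower and 34.6% called higher. The median log2 fold change was -0.60 over the members and 0.65 over all genes tested. Its sign depended on the minimum: with at least 20 counts over the FBF libraries it was 1.07 over 62 members, 40 of them above 0 (0.71 over all genes), and with no minimum level it was 1.86 over all members with a count in these libraries, 105 of them above 0 (1.27 over all genes). A fitted value of a member at 0 in the controls depends on the prior count. With TMM scaling the same medians were -0.98 and 0.27, so the distance between them stayed at -1.25, and the calls became 16 lower and 5 higher. The combined FBF replicates did not overlap the controls for 29 of the 33 members (18 lower and 11 higher), beside 65.1% of all genes.

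Of the 26 abundant collagens 9 fell over the spermatogenic control, 4 rose and the others were not called. Col-119, on chromosome IV (8978926 to 8979795, WBcel235), was at 994, 918 and 840 RPM with FBF-1 and 610, 857 and 931 RPM with FBF-2, against 1846, 2013 and 2081 RPM in the spermatogenic controls. All 6 FBF libraries lay below all 3 controls, and the log2 fold change was -1.22 ± 0.12 (SE; adjusted p = 2.09e-13, edgeR). Col-101, on chromosome IV (325435 to 327020), showed the largest fall among the members tested here, with 309 to 523 RPM in the 6 FBF libraries, 1102 to 1456 RPM in the controls and a log2 fold change of -1.62 ± 0.14 (adjusted p = 2.31e-16, edgeR). The other called members were col-98 at -1.56, col-20 at -1.31, col-181 at -1.20, col-140 at -1.19, col-124 and col-122 at -1.17 and col-106 at -1.15 on the log2 scale. Col-19, an adult cuticle collagen and a common marker of the adult hypodermis, was at 447 to 638 RPM with FBF and at 661, 654 and 906 RPM in the controls, and was not called (log2 fold change -0.41 ± 0.15, adjusted p = 0.0135, edgeR).

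The 6 members called higher were not among the 10 most abundant, though 4 of them were among the 26 abundant members. The 6 were col-94 (log2 fold change 2.64), col-142 (1.94), col-92 (1.92), col-81 (1.24), col-12 (2.76) and col-117. Col-117 had no count in any spermatogenic control, where 3 counts over the 3 libraries together would be 9.55 RPM, so it was at least 4.76-fold higher with FBF, at a mean of 45.4 RPM in the combined replicates. The count of higher calls depended on the protein: FBF-1 libraries alone gave 3 higher and 10 lower, and FBF-2 libraries alone gave 15 higher and 9 lower, where the background shares were 35.1% and 8.43% with FBF-1 and 33.4% and 8.4% with FBF-2. It rose to 10 without combined FBF spermatogenic replicate 1. Members with counts in the spermatogenic controls thus ran from -1.62 to 2.76 on the log2 scale.

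In oogenic germlines no member was higher with FBF. Of 33 members tested 18 were called lower and 0 higher, against 2.5% of all 5392 genes called lower and 32.9% called higher, and the log2 fold change was below 0 for all 33 (for 101 of 130 with no minimum level). No member was higher at an unadjusted p under 0.05, and DESeq2 also called 0 higher. The median was -1.04 over the members and 0.82 over all genes, and with TMM scaling it was -1.69 and 0.12 with 31 members lower. The groups did not overlap for 31 of the 33 members, beside 59.4% of all genes.

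The falls of the oogenic collagens were even in size. Among the 26 abundant members the log2 fold change ran from -1.56 to -0.81 with a median of -1.04, where the same 26 in spermatogenic germlines ran from -1.62 to 2.64. Col-81 was at 160, 112 and 90.0 RPM with FBF-1 and 68.5, 87.8 and 111 RPM with FBF-2, against 269, 285 and 331 RPM in the oogenic controls (log2 fold change -1.56 ± 0.24, adjusted p = 1.95e-05, edgeR). Its FBF libraries all lay below its controls, as did those of col-159 (-1.54), col-139 (-1.51), col-129 (-1.37) and col-94 (-1.34), the other members with the largest called falls among those whose groups did not overlap. Col-19 passed the threshold here, with 427 to 496 RPM with FBF and 877 to 963 RPM in controls (-1.03 ± 0.15, adjusted p = 9.01e-06, edgeR). Col-119 was at 748 to 1006 RPM with FBF and 1471 to 1718 RPM in controls, a fall of less than 2-fold that was not called (-0.88 ± 0.14, adjusted p = 2.87e-05, edgeR).

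The order of the members by level was much the same with and without antibody. Across the 33 members tested, the log2 levels of FBF and control had a Pearson correlation of 0.99 in oogenic and 0.91 in spermatogenic germlines. These values are across genes that share libraries, length and abundance, and are given as a description.

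**Figure D2:**
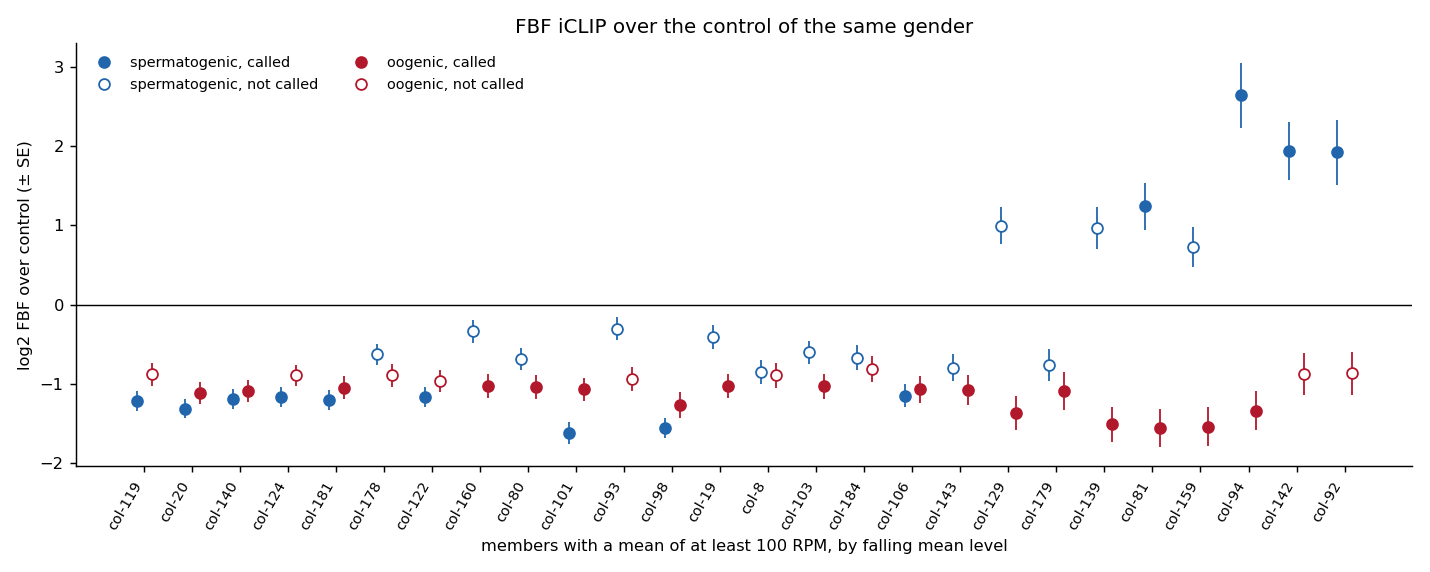
Log2 fold change of FBF over the control of the same gender (points, ± SE) for the 26 members with a mean of at least 100 RPM, ordered by mean level, with called members filled. All 26 are below 0 in oogenic germlines, while 7 are above 0 in spermatogenic germlines, with col-94 the highest at 2.64.

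The controls themselves differed in 7 collagens. Between spermatogenic and oogenic controls (TMM scaling) 7 of 30 members tested were called lower and 0 higher, against 5.18% of 5003 genes called lower and 7.86% called higher. At an unadjusted p under 0.05, 16 members were lower and 0 higher, and DESeq2 also called 7 lower and 0 higher. The median was -0.41 over the members and 0.01 over all genes. Library-size scaling moved the median of all genes to 0.32 and that of the members to -0.09, and called 7 lower. With that scaling 8 members were lower and 5 higher at an unadjusted p under 0.05.

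Col-94, on chromosome III (10986808 to 10987873), differed most. It was at 9.18, 16.8 and 41.2 RPM in the spermatogenic controls and at 248, 226 and 316 RPM in the oogenic controls, with a log2 fold change of -3.61 ± 0.40 (adjusted p = 3.87e-12, edgeR). Its FBF libraries lay between, at 116 to 206 RPM in spermatogenic and 92.3 to 160 RPM in oogenic germlines. Col-93, its neighbour on the same strand with a gap of 1198 bases, was at 744, 788 and 900 RPM in the spermatogenic and 1019, 1004 and 855 RPM in the oogenic controls, which overlapped, and was not called (-0.55 ± 0.17, adjusted p = 0.0122, edgeR). On the other side of col-93, at 1298 bases, col-92 was called (-2.56 ± 0.42), with 9.18, 16.8 and 54.9 RPM in the spermatogenic and 134, 162 and 158 RPM in the oogenic controls.

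The same contrast between neighbours held on chromosome V. Col-142 was at 45.9, 33.5 and 34.3 RPM in the spermatogenic and 219, 134 and 194 RPM in the oogenic controls (-2.48 ± 0.39), while col-143, at 3378 bases from it, was at 487 to 570 and 531 to 599 RPM and was not called. Col-159 was called (-1.63 ± 0.28) and col-160, whose exons share 21 bases with it, was not. The others called lower were col-81 (-2.20), col-139 (-1.87) and col-129 (-1.61), and col-12 had a log2 fold change of -2.17 ± 0.79 that missed the threshold (adjusted p = 0.0413, edgeR). The 19 other abundant members ran from -0.61 to 0.17, and none of them was called.

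The 7 collagens called lower in the spermatogenic controls were above 0 when FBF was set over those same 3 libraries, so the comparisons share their controls and are not independent of each other. Their log2 fold change of FBF over control was 0.73 to 2.64 in spermatogenic and -1.56 to -0.87 in oogenic germlines. The 19 other abundant members were all below 0 in both, from -1.62 to -0.30 with a median of -0.85 in spermatogenic germlines and from -1.27 to -0.81 with a median of -1.03 in oogenic germlines. When the spermatogenic FBF libraries were set against the oogenic controls, which shared their lane but not their gender, all 7 turned negative, from -0.67 for col-94 to -0.23 for col-142. That comparison called 6 members lower and 2 higher, with background shares of 4.79% and 48.6%.

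Other features of the spermatogenic controls differed too. Mitochondrial genes took 7.87% to 8.85% of their counts and 2.93% to 3.04% of those of the oogenic controls. Together, tRNA genes took 4.84% to 7.75% of counts in the spermatogenic and 4.26% to 4.79% in the oogenic controls. Of 81 tRNA genes picked for reaching 50 counts over the oogenic controls, 19 were at 0 in the spermatogenic ones. Of 6 intestinal genes tested, 3 were called lower in the spermatogenic controls, the vitellogenin genes vit-3, vit-4 and vit-5, against 5.18% of all 5003 genes. The median log2 fold change of the 6 was -0.83. Of 13 muscle genes 0 were called in either direction. The part of lane, of library composition and of these other RNAs in the difference of the 7 collagens was not tested.

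**Figure D3:**
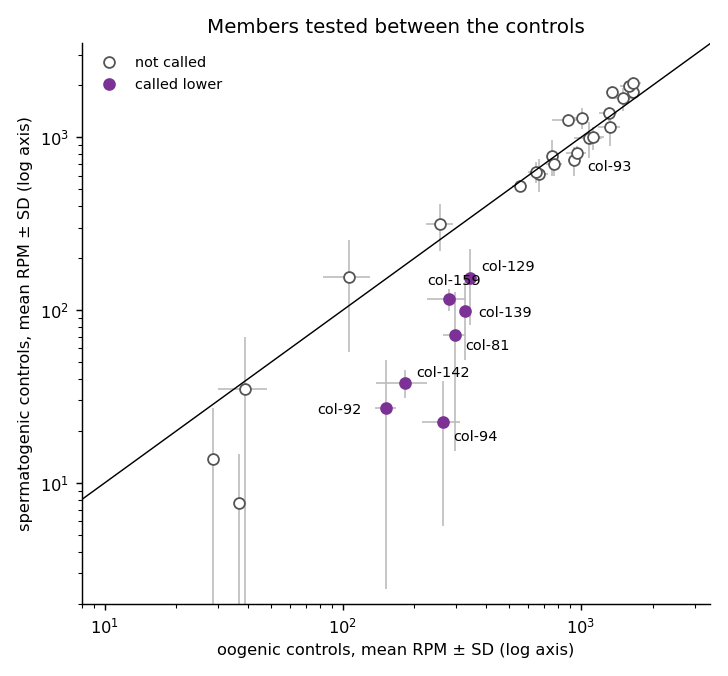
Mean RPM (± SD, n = 3) of the 30 members tested in oogenic (x) and spermatogenic (y) controls on log axes, with the line of equal level; bars that reach 0 run off the lower edge. The 7 called members lie below the line, and col-93, between col-92 and col-94 on the chromosome, lies near it.

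The antibody by gender interaction asks whether FBF over control differed between the genders. It was called higher in spermatogenic germlines for 8 of 30 members tested and lower for 0, against 1.95% and 2.1% of all 5910 genes, with 1 member lower at an unadjusted p under 0.05 and 0 lower by DESeq2. The interaction contains both sets of controls, so it is not independent of their difference either. The 8 were the 7 members above, from 2.26 for col-159 to 3.96 for col-94, and col-12 at 3.97 ± 0.80 (log2; adjusted p = 0.000329, edgeR). Between the FBF libraries of the genders these 7 were not called (0.37 to 0.86), and col-12 was (1.91). Col-119 had an interaction of -0.34 ± 0.19 that was not called (adjusted p = 0.399, edgeR). The call was not particular to collagens: of 6 intestinal genes tested, vit-3 and vit-4 were also called higher, and of 13 muscle genes 0 were called.

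Low-level collagens differed between the FBF proteins. In spermatogenic germlines 17 of 44 members tested were higher with FBF-2 than with FBF-1 and 0 were lower, against 1.83% and 3.95% of all 6456 genes, in a comparison added after the values were seen. No member was lower at an unadjusted p under 0.05 or by DESeq2, which also called 17 higher. The members made up 14.4% of the 118 genes called higher with FBF-2. A member could reach the minimum of 20 RPM through its FBF-2 libraries alone, which raises the values of those tested. Over the 26 abundant members, of which 1 was called, the median log2 fold change was 0.09, against -0.00 over all genes. The groups did not overlap for 22 of the 44 members, beside 41.9% of all genes tested.

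The members higher with FBF-2 were of low level, and 16 of the 17 were under 100 RPM. Col-62, on chromosome I (7403291 to 7404374), was at 35.6, 45.9 and 32.8 RPM with FBF-2 and at 2.03, 0 and 5.79 RPM with FBF-1 in spermatogenic germlines (log2 fold change 3.56 ± 0.38, adjusted p = 2.31e-09, edgeR). It was at 0 in all 3 spermatogenic controls, at 9.79 RPM or less in the oogenic FBF libraries and at 7.07, 3.52 and 21.6 RPM in the oogenic controls. Its FBF-2 spermatogenic libraries were thus above all 15 others. In FBF-1 oogenic replicate 1 and spermatogenic control replicate 2, however, 3 counts correspond to 160 and 50.3 RPM. A value of 0 there does not show a lower level.

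Col-73, on chromosome II (4872098 to 4873129), was at 54.9, 60.9 and 62.2 RPM with FBF-2 and at 8.11, 3.81 and 5.79 RPM with FBF-1 (3.29 ± 0.29, adjusted p = 2.64e-11, edgeR). It did not exceed 9.18 RPM in any of the other 12 libraries. It lies 1306 bases from col-20, which is among the most abundant members and was at 639 to 933 RPM with FBF-2 and 806 to 921 RPM with FBF-1, with a log2 fold change of -0.01 ± 0.14. Col-17, on the other side of col-20 at 2093 bases, was also called higher with FBF-2 (1.70).

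Col-39 showed the same contrast with its neighbour col-80. It was at 56.4, 60.9 and 68.9 RPM with FBF-2 and at 9.12, 17.1 and 10.8 RPM with FBF-1 (2.49 ± 0.26), while col-80, 1181 bases away, was at 511 to 785 and 552 to 653 RPM and was not called. Col-12, on chromosome V (10423898 to 10425198), was at 83.2, 131 and 101 RPM with FBF-2 and at 24.3, 17.1 and 25.6 RPM with FBF-1 (2.24 ± 0.20, adjusted p = 4.39e-11, edgeR). Of the remaining called members, col-97 (2.83) and col-38 (2.76) had the largest differences and col-81 (1.32) the smallest.

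The summed level of the 17 members was 286 to 320 RPM with FBF-1 and 842 to 1200 RPM with FBF-2 in spermatogenic germlines, 160 to 258 RPM in the oogenic FBF libraries, 50.3 to 220 RPM in the spermatogenic controls and 522 to 661 RPM in the oogenic controls. As the 17 were chosen for this difference, the first pair of ranges is a description. The highest of the 18 libraries was an FBF-2 spermatogenic library for 14 of the 17, which the same choice favours, so this count too is a description. In the spermatogenic controls 7 of the 17 had no count. With no minimum level 43 of 140 members with a count were called higher with FBF-2, against 1.2% of all genes.

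In oogenic germlines only col-92 was called between the proteins, of 27 members tested (1.03 ± 0.22, higher with FBF-2, with overlapping groups), against 4.23% of all 5434 genes called higher and 3.53% lower. With DESeq2 and with library-size scaling 0 were called. At an unadjusted p under 0.05, 24 members were higher and 0 lower with edgeR and TMM scaling. These counts were 21 and 0 with DESeq2, and 7 and 0 with library-size scaling. The groups did not overlap for 13 of the 27 members, all 13 higher with FBF-2, beside 30.2% of all genes. The median of the members was 0.67, against 0.01 over all genes. Other somatic lists lay above 0 in the same comparison, with 13 of 13 muscle genes (median 0.61, and mlc-2 called), 3 of 3 basement membrane collagens (0.53) and 6 of 6 intestinal genes tested (0.37), and their part in the shift of the col- genes was not tested. Library-size scaling moved the median of all genes to -0.50 and that of the members to 0.16, so that the distance between them stayed at 0.66.

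The protein by gender interaction was called higher for col-12 (2.13 ± 0.49) and col-39 (1.95 ± 0.50) and lower for col-119 (-1.02 ± 0.21) among 34 members tested, against 1.16% of all 5960 genes higher and 2.92% lower. With DESeq2 0 were higher and 1 was lower, and with library-size scaling, which moved the median of all genes from 0.04 to 0.52, 5 were higher and 0 lower. The call of col-119 was lost without FBF-1 spermatogenic replicate 1 or 2, FBF-2 spermatogenic replicate 1, FBF-1 oogenic replicate 3 or FBF-2 oogenic replicate 2 or 3. That of col-12 was lost without FBF-1 oogenic replicate 2 or FBF-2 oogenic replicate 1, and that of col-39 without FBF-1 oogenic replicate 2 or 3, FBF-1 spermatogenic replicate 1 or 3, FBF-2 spermatogenic replicate 3 or FBF-2 oogenic replicate 3.

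**Figure D4:**
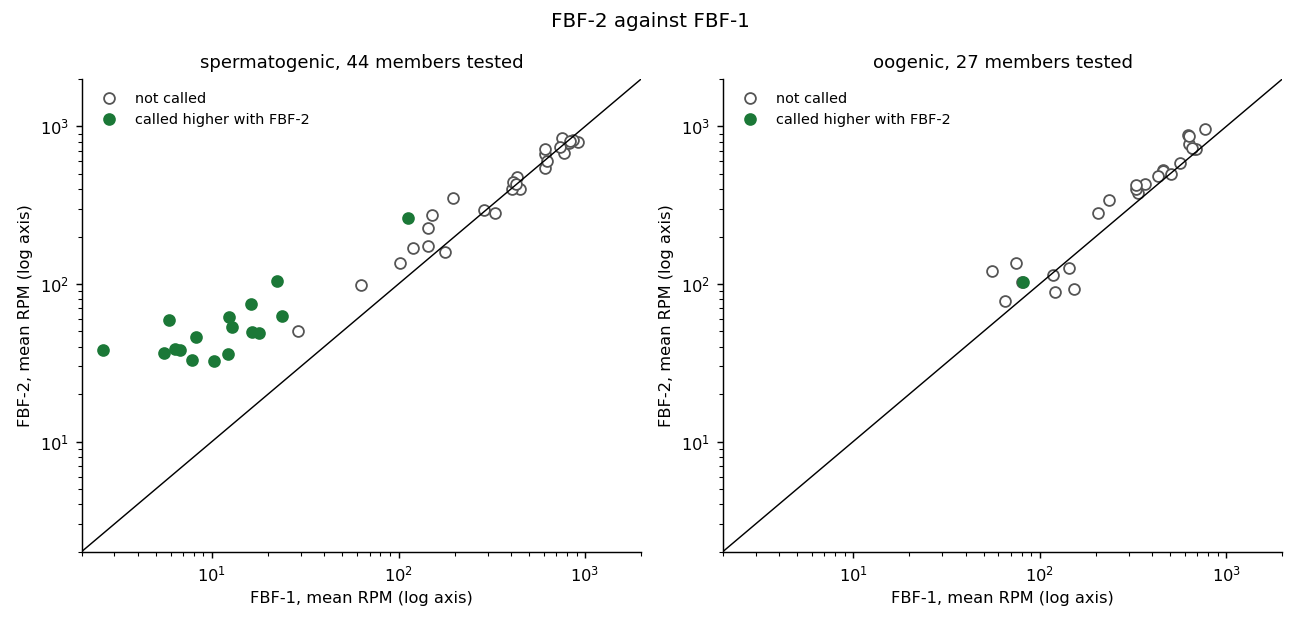
Mean RPM with FBF-1 (x) and FBF-2 (y) of the members tested in spermatogenic (left) and oogenic (right) germlines, on log axes with the line of equal level. The 17 members called in spermatogenic germlines lie above the line, 16 of them at under 100 RPM over the groups, and 1 member, col-92, is called in oogenic germlines.

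The collagens called between the genders with FBF were of low level. Between spermatogenic and oogenic FBF libraries 6 of 35 members tested were higher and 0 lower, against 6.64% and 4.14% of all 6058 genes. A member could reach the minimum of 20 RPM through its spermatogenic libraries alone, as col-117 did, which raises the values of those tested. At an unadjusted p under 0.05, 14 were higher and 2 lower, and DESeq2 called 5 higher and 0 lower. The 6 were col-117 (2.95 ± 0.37), col-149 (2.11 ± 0.27), col-12 (1.91 ± 0.24), col-133 (1.74 ± 0.31), col-39 (1.14 ± 0.20) and col-125 (1.06 ± 0.24, adjusted p = 0.00393, edgeR), all of them also among the 17 called higher with FBF-2. FBF-2 libraries alone gave 14 higher. With FBF-1 libraries alone, none of the 6 reached the minimum of 20 RPM, so they were not tested; of the 28 members that were, 25 were above 0, 12 were higher and 0 lower at an unadjusted p under 0.05, and 0 were called. The count was 3 without combined FBF oogenic replicate 3, and with no minimum level it was 38 of 143 members with a count, against 8.3% of all genes.

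The abundant collagens showed no called difference between the genders with FBF. The 26 members ran from -0.43 to 0.86 on the log2 scale with a median of -0.03, beside -0.01 over all genes tested. Col-117 illustrates the low-level members, with 20.3, 9.52 and 19.02 RPM with FBF-1 and 52.0, 82.9 and 90.4 RPM with FBF-2 in spermatogenic germlines. In oogenic germlines it had 0, 2.75 and 4.36 RPM with FBF-1 and 3.92, 4.39 and 15.9 RPM with FBF-2, so both spermatogenic groups exceeded the FBF-1 oogenic libraries.

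**Figure D5:**
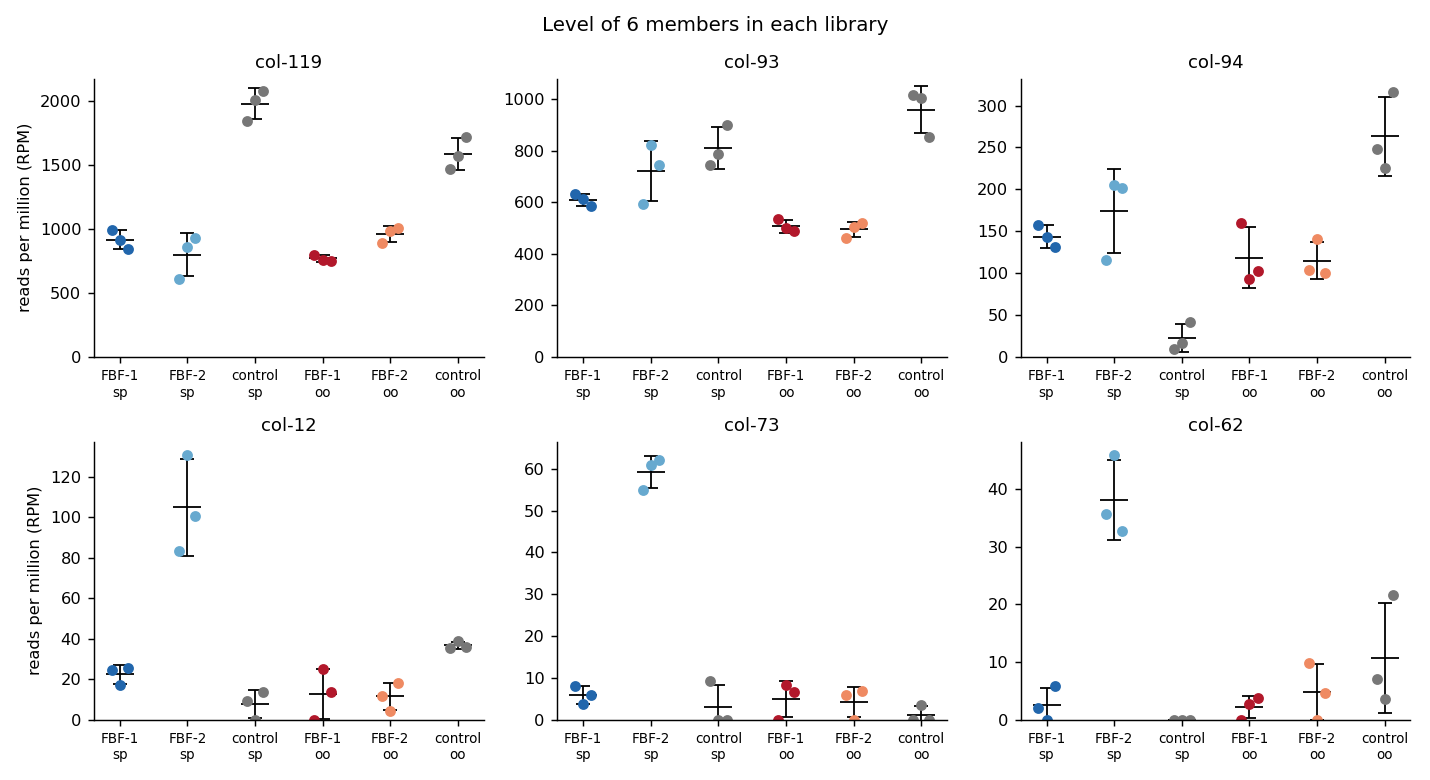
RPM of 6 members in each library (points), with the mean and SD of each group of 3 (bars), for spermatogenic (sp) and oogenic (oo) germlines. Col-119 is highest in the controls of both genders, col-93 overlaps between the controls, col-94 is low in the spermatogenic controls (9.18 to 41.2 RPM), and col-12, col-73 and col-62 are highest in the FBF-2 spermatogenic libraries.

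Members known from earlier work on stage-specific collagens were mostly near the limit of detection. Col-2, a collagen of the dauer larva, did not exceed 9.18 RPM in any library, and col-7 did not exceed 6.78 RPM. Col-10 was at 0 to 50.3 RPM, col-34 at 0 to 33.5 RPM and col-99, a transmembrane collagen, at 0 to 53.3 RPM, the last value being from the smallest library, where 3 counts correspond to 160 RPM. Col-13 lies 1995 bases from col-12 and is its close relative. It was at 13.4, 33.5 and 30.5 RPM with FBF-2 and at 4.06, 5.71 and 7.44 RPM with FBF-1 in spermatogenic germlines, and its mean level was under the minimum for a call. Since reads that mapped to several places were removed, the levels of collagens with near-identical stretches are uncertain, and how much sequence the members share was not tested.

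Cuticle collagens with other names were of low level. The 20 genes of this list in the table, which include dpy, rol, sqt and bli genes defined by mutant body shape or blistered cuticle, summed to 184 to 263 RPM with FBF-2 in spermatogenic germlines and to 27.6 to 116.7 RPM in the other 15 libraries. Between the proteins in spermatogenic germlines only 2 could be tested, dpy-13 (2.39) and sqt-3 (1.35). Both were called higher with FBF-2, against 1.83% of all 6456 genes. A gene could reach the minimum through its FBF-2 libraries alone, so this count does not stand for the list. Most of the sum in the FBF-2 spermatogenic libraries came from 5 genes, dpy-13 (mean 40.3 RPM), dpy-4 (36.5 RPM), bli-6 (30.9 RPM), sqt-3 (30.1 RPM) and dpy-5 (27.9 RPM), while dpy-2 had a mean of 2.10 RPM with FBF-2 and 2.18 RPM with FBF-1. Dpy-4 was at 29.7 to 49.7 RPM in these 3 libraries and 0 to 20.6 RPM elsewhere, and dpy-5 was at 26.0 to 31.2 RPM and 0 to 33.5 RPM elsewhere. Against the controls only sqt-3 could be tested, in spermatogenic germlines, and it was not called (-0.24, adjusted p = 0.752, edgeR).

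Few genes that process collagen were called over the controls. Of 14 processing genes with values, 9 were tested over the spermatogenic control, with 1 higher, 0 lower and a median log2 fold change of -0.52 (5 of 9 below 0), and 8 over the oogenic control, with 1 higher, 0 lower and a median of -0.33 (6 of 8 below 0). All genes were called higher in 34.6% and 32.9% of cases. The difference between these genes and the col- genes was not tested. The called gene was in each case pdi-3, a protein disulfide isomerase (1.26 and 1.09). Of 7 epidermal regulators, 6 were tested over the spermatogenic control, with 2 higher, 0 lower and a median log2 fold change of 0.25 (2 of 6 below 0). Over the oogenic control 4 were tested, with 1 higher, 0 lower and a median of 0.28 (2 of 4 below 0). The medians over all genes were 0.65 and 0.82. Nhr-23, a nuclear receptor that drives molting, was higher with FBF in both genders (3.38 and 3.39). It was at 774 to 1119 RPM in spermatogenic and 268 to 501 RPM in oogenic FBF libraries and at 21.6 to 119 RPM in the controls. Lin-26, an epidermal fate factor, was higher over the spermatogenic control (1.66). Between the proteins in spermatogenic germlines 5 epidermal regulators were tested, of which 1 was above and 4 were below 0. Only elt-1, a GATA factor of the epidermis, was called (-2.04, lower with FBF-2), against 3.95% of all 6456 genes called lower. All 20 sperm genes tested were also below 0 in this comparison (median -0.58, with msp-77 and msp-78 called), while 17 members were higher. Whether these differences are related was not tested.

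The 3 basement membrane collagens, emb-9, let-2 and cle-1, are not cuticle genes and were below 0 over both controls, with summed levels of 800 to 1389 RPM in FBF and 1485 to 2259 RPM in control libraries. Only cle-1 was called, lower over the spermatogenic control (-1.30). The part of somatic RNA content, of RNA yield and of the other tissues in any of these differences was not tested.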

How the data were processed

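The authors deposited raw counts of iCLIP reads per gene for 18 libraries, without normalization. Per the paper and the labels, STAR aligned the reads locally (the submitters' notes also name Novoalign), reads that mapped to several places or scored under 20 were removed, duplicates were collapsed by barcode, and reads overlapping exons were assigned with HTSeq. Versions, genome build, annotation and strand setting are not given in the sources used here. Reads on no gene (9.55% to 20.2%) and ambiguous reads (0.568% to 1.93%) stayed out of library sizes and tests.

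Tests used the robust quasi-likelihood method of edgeR 4.0.16, in R 4.3.3 with limma 3.58.1, over all genes with at least 20 RPM. The counts of both proteins were added up to 3 combined replicates per gender in the study's order. Library-size scaling served FBF over control and the antibody by gender interaction, TMM the rest. Python 3.11.15, numpy 2.4.6, pandas 2.3.3 and matplotlib 3.10.9 gave other values, and the tests were tried on simulated data. Intervals and limits from 3 counts cover counting error only.

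Members were taken by name alone, but the choice of the family, marker lists and tests was made with earlier results of these data known. The comparisons of FBF-2 with FBF-1 and the protein by gender interaction were added after the values were seen. Named are the 10 most abundant members, the called members (above 10 calls, the 5 largest with no overlap between groups), the 5 with the largest difference between controls and 9 stage-specific or transmembrane members. Others, such as col-93, were named after their values were seen. Alternatives were DESeq2 1.42.0, other scalings, minimums, thresholds, controls and libraries, leaving out each replicate, and the replicate number as a block.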

Additional observations from a re-analysis of the deposited data

Results flagged for a closer look

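FBF over control differed between the genders, by a test of the interaction itself, for 8 members. The log2 interaction, spermatogenic minus oogenic FBF over control, was 3.97 for col-12, 3.96 for col-94, 2.81 for col-81, 2.80 for col-92, 2.78 for col-142, 2.48 for col-139, 2.34 for col-129 and 2.26 for col-159. For the 7 other than col-12 the FBF libraries showed no called difference between the genders (0.44 for col-94, adjusted p = 0.0403, edgeR), while the controls did (-3.61 for col-94), and lane and gender cannot be told apart within the controls. For col-12 the FBF libraries differed (1.91) and the controls were not called (-2.17). The difference between FBF-2 and FBF-1 changed with gender for 3 members, with a log2 interaction of 2.13 for col-12, 1.95 for col-39 and -1.02 for col-119. Col-12 stands in both sets, with 83.2 to 131 RPM in FBF-2 spermatogenic libraries and 38.8 RPM or less in the other 15.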

How the results depend on the processing

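For single members, 1151 values under an alternative, left-out replicates included, kept their direction and side of the threshold, 74 lost and 45 gained a call, and 12 turned direction. Among counts of members over control, the spermatogenic count of higher members, 6, became 13 with no minimum level, 1 at a minimum of 100 RPM, 17 at a mean of at least 20 counts, 3 with separate or FBF-1 libraries, 15 with FBF-2 libraries and 2 with oogenic controls. The count of lower members, 9, became 16 with TMM, 14 with DESeq2, 17 without rRNA, tRNA and mitochondrial genes (12 when TMM was added, chosen after seeing the data) and 6 with oogenic controls. In oogenic germlines the 18 lower members became 31 with TMM or DESeq2, 35 without rRNA, tRNA and mitochondrial genes under either scaling (the second chosen after seeing the data), 7 with FBF-2 libraries and 11 with the spermatogenic controls, which also gave 1 higher. Those controls turned col-94 to 2.03, col-92 to 1.42, col-142 to 1.34, col-81 to 0.36 and col-139 to 0.084. The oogenic controls turned the spermatogenic values of col-94 to -0.67, col-81 to -0.64, col-159 to -0.59, col-139 to -0.58, col-92 to -0.35, col-129 to -0.31 and col-142 to -0.23.

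The 6 members higher in spermatogenic FBF became 38 with no minimum level, 0 at 100 RPM, 16 at 20 counts, 2 with separate libraries, 0 with FBF-1 and 14 with FBF-2 libraries, and 0 without the FBF-2 spermatogenic libraries (chosen after seeing the data); in the 3 settings with 0 the 6 were under the minimum and not tested. The 8 interaction calls became 13 with no minimum and 15 at 20 counts, and the 17 members higher with FBF-2 became 43 with no minimum. In oogenic germlines the 1 higher with FBF-2 became 0 with library-size scaling, DESeq2 or no minimum. The protein by gender interaction, 2 higher and 1 lower, became 5 and 0 with library-size scaling, 8 and 0 with no minimum, and 0 higher with DESeq2. The cause was not tested, apart from the genes and libraries that a setting adds or drops.

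Leaving out a replicate gave 6 to 10 higher and 9 to 10 lower in spermatogenic and 14 to 18 lower in oogenic FBF over control, 3 to 7 between genders, 7 between controls, 8 to 9 for antibody by gender, 14 to 20 and 0 to 2 for FBF-2 over FBF-1 in spermatogenic and oogenic germlines, and 0 to 3 in each direction for protein by gender.

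The summed col- level without rRNA, tRNA and mitochondrial genes was 15886 RPM with FBF and 38198 RPM in controls (2.40-fold) in spermatogenic and 15690 and 48532 RPM (3.09-fold) in oogenic germlines. Without the member of most counts it was 20581 RPM in spermatogenic controls, and 10260 RPM with FBF and 21084 RPM in controls of oogenic germlines.

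Same-numbered samples showed little tendency to deviate together (correlations of -0.04 to 0.05 between FBF and control and -0.19 to 0.02 between FBF-1 and FBF-2). Between the genders the correlations were -0.06 to 0.14. No pairing by number was seen, though 3 replicates per group cannot exclude it. The block for FBF over control and between genders was fitted on separate libraries, where 3 members were higher over the spermatogenic control and 2 higher in spermatogenic FBF both with and without it. With the replicate number as a block in the other comparisons, 2 members were higher with FBF-2 in oogenic germlines and 5 lower for protein by gender, and 17 were higher with FBF-2 in spermatogenic germlines.

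The shallow controls (59621 to 283777 counts) and FBF-1 oogenic replicate 1 limit what can be seen of members under about 20 RPM. Scans of binding motifs and of shared sequence among the members were not run.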
